A study of Mus musculus with 22 samples.

Results

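The 10 genes described here encode heat shock proteins and their partners in the cytosol, and all 10 listed members were present among the 12596 genes of the deposited table. They are the HSP90 genes Hsp90aa1 and Hsp90ab1, the constitutive HSP70 gene Hspa8, the HSP110 genes Hspa4, Hspa4l and Hsph1, the J-domain gene Dnaja1, the inducible HSP70 genes Hspa1a and Hspa1b, and the small heat shock protein gene Hspb1. The list was chosen by gene name with earlier results of these libraries known, and it was in part selected on measured values: lower log2 CPM of heat shock genes in hTyr than in EYFP input RNA. The values of that contrast are therefore given as a description without a test.

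The libraries came from 11 mice of a C57Bl/6 background. Every mouse came from a cross that combined a driver line, B6.Cg-7630403G23RikTg(Th-cre)1Tmd/J, in which Cre is made under tyrosine hydroxylase sequences, with the Slc6a2-eGFP/Rpl10a line (JD1538Htz, of B6;FVB origin), in which sequences of the noradrenaline transporter gene drive a green fluorescent tag on the ribosomal protein Rpl10a. Ribosomes of the tagged cells, with the RNA they carry, can be pulled down through the tag. Hindbrain RNA was sequenced before this step (input) and after it (IP), so each mouse gave 1 library of each kind, and libraries are named here as in the labels, IP_507 and Pre_507 being the IP and the input of the same mouse. The study addressed the locus coeruleus, the main noradrenergic nucleus of the hindbrain: 5 mice received an infusion of hTyr (human tyrosinase, an enzyme that makes melanin pigment) and 6 control mice one of EYFP, a fluorescent protein. The groups were hTyr IP (n = 5), EYFP IP (n = 6), hTyr input (n = 5) and EYFP input (n = 6), and the transgenes of the cross are shared by all of them. Age, sex and the time from infusion to collection are not stated in the labels used here, and the infused genes were not analysed here.

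The table holds log2 CPM values, that is, read counts scaled to library size (CPM) on a log2 scale. The recovered depth was 12654489 to 25100142 reads per library, all from genes in the table. The 12 listed noradrenergic marker genes were all higher in IP than in input under both infusions, with median log2 changes of 1.95 in EYFP and 2.50 in hTyr animals. Their summed level was 749 to 1487 CPM in EYFP IP, 882 to 2348 CPM in hTyr IP and 258 to 303 CPM in the inputs. RNA of other cells stayed in the IP libraries: the 9 oligodendrocyte markers summed to 6277 to 8059 CPM in EYFP IP and 6172 to 8597 CPM in hTyr IP, against 6702 to 9323 CPM in the inputs. The 8 astrocyte markers summed to 3029 to 4346 CPM in EYFP IP and 3313 to 4167 CPM in hTyr IP, against 2658 to 3417 CPM in the inputs. The 9 microglia markers summed to between 201 and 415 CPM over all libraries. Markers of other neurons rose in IP too, 7 of 9 in EYFP and 6 of 9 in hTyr animals (limma, adjusted p under 0.05), against 28.5% and 27.4% of all genes. The 9 markers had median log2 changes of 0.41 and 0.48, with 2 below 0 under each infusion. They summed to 1102 to 1522 CPM in IP and 857 to 1155 CPM in input.

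As background, HSP70 proteins bind unfolded stretches of client proteins in a cycle driven by ATP, J-domain proteins deliver clients and start ATP hydrolysis, and HSP110 proteins release ADP so that the cycle can begin again. HSP90 takes over partly folded clients, among them kinases and steroid receptors, and small heat shock proteins hold unfolding proteins without using ATP. Under protein stress the transcription factor HSF1 binds heat shock elements, inverted repeats of the unit nGAAn, and raises the inducible genes, while neurons keep high constitutive levels of HSC70 and HSP90.

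The 3 members with the most RNA per length were Hspa8, Hsp90ab1 and Hsp90aa1. In EYFP IP libraries, levels per kilobase of annotated exon were 546 ± 82.2 CPM per kb (mean ± SD, n = 6) for Hspa8, 516 ± 47.8 for Hsp90ab1 and 333 ± 74.2 for Hsp90aa1. Of these, Hspa8 ranged over libraries from 395 to 638 CPM per kb and Hsp90ab1 from 437 to 578, so this order did not hold beyond the spread. A second tier held Hsph1 at 51.3 ± 5.41 CPM per kb, Hspa4 at 50.9 ± 11 and Dnaja1 at 38.5 ± 6.31. Hspa4l at 21.9 ± 4.79 CPM per kb and Hspb1 at 18.9 ± 4.8 overlapped each other. The inducible pair had the lowest means per kb, with 12 ± 6.01 CPM per kb for Hspa1a and 9.2 ± 6.11 for Hspa1b. Their libraries, at 7.96 to 23.2 and 4.33 to 21.2 CPM per kb, overlapped those of Hspb1, at 14.6 to 27.8. This rank also depends on length. In CPM not divided by length, Hspb1 had the lowest mean in EYFP IP, 19.5 against 35.6 for Hspa1a and 25.8 for Hspa1b. In EYFP input, Hsp90ab1 (354 ± 21.2 CPM per kb) was above Hspa8 (270 ± 18.5), and their ranges of 328 to 388 and 245 to 293 did not overlap. This order depends on the exon lengths used, 2999 bases for Hsp90ab1 and 4301 for Hspa8. Before division by length, Hspa8 had the higher mean in EYFP input, at 1160 ± 79.6 CPM against 1060 ± 63.4.

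**Figure D1:**
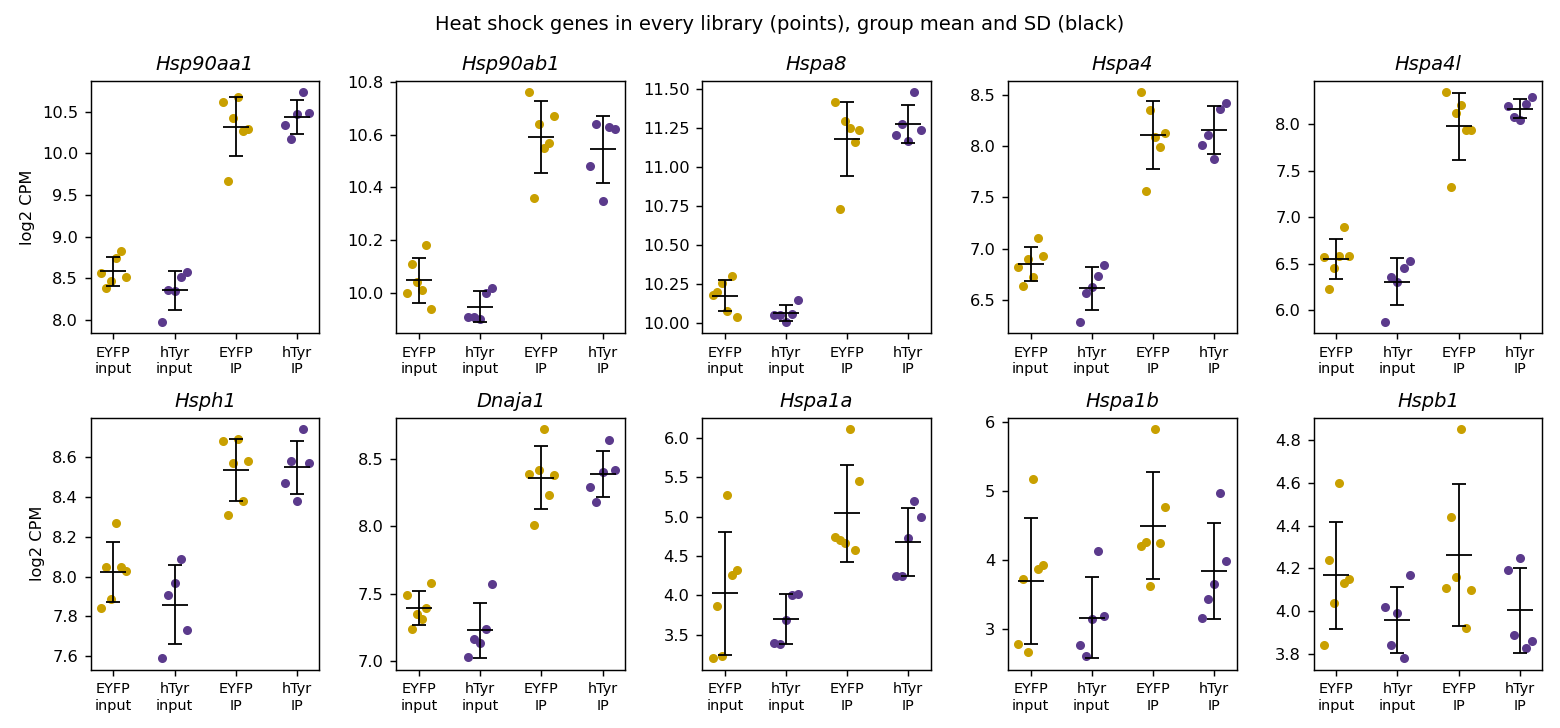
Levels of the 10 heat shock genes in every library, on the log2 CPM scale, with 1 panel per gene and 1 column of points per group (EYFP input, hTyr input, EYFP IP, hTyr IP). Each point is 1 animal, and black marks give the group mean and SD. Hsp90aa1, Hsp90ab1, Hspa8, Hspa4, Hspa4l, Hsph1 and Dnaja1 are higher in IP than in input with no overlap under both infusions. Hspa1a is so in hTyr animals only, and the points of Hspa1a and Hspa1b are the most scattered.

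Relative to input, 8 of the 10 genes were higher in IP in EYFP animals and 8 of 10 in hTyr animals, and none was lower (limma on log2 CPM, adjusted p under 0.05 over all genes). That fit did not pair the 2 libraries of an animal. With the pairing, 9 of 10 were higher under both infusions, beside 3964 (EYFP) and 3661 (hTyr) of all 12596 genes. The input values that in part selected the list are also the baselines here. Selection for low hTyr input can enlarge the hTyr changes, and selection for high EYFP input can reduce the EYFP changes. The p-values of the members are therefore not independent of the choice of the list. Of all 12596 genes, 28.5% were called higher and 28.1% lower in EYFP animals, and 27.4% higher and 27.0% lower in hTyr animals. The IP and input groups did not overlap for 7 of the 10 in EYFP animals, against 16.7% of all genes with IP the higher group, and for 8 of the 10 in hTyr animals, against 20.7%. The median log2 change of the members was 0.99 in EYFP and 1.07 in hTyr animals, beside -0.03 and -0.04 over all genes. Within single animals, 9 of the 10 members were higher in IP in 11 of 11 mice, and Hspb1 was higher in 8 of 11. Of the 8 astrocyte markers, 4 were higher and 1 lower in IP in EYFP animals, and 5 higher and 1 lower in hTyr animals. The part of these and of the other neuron markers in the members' values was not tested. In such bulk RNA, a larger share of cells of a type and more RNA per cell cannot be told apart.

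HSP90. Hsp90aa1 encodes HSP90 alpha, the stress-responsive isoform of cytosolic HSP90 (chromosome 12, 110690605 to 110702728, minus strand, GRCm38), and it had the largest difference between IP and input among the members. In hTyr animals its level was 10.34, 10.17, 10.47, 10.73 and 10.48 log2 CPM in IP (IP_501, IP_502, IP_508, IP_509 and IP_510, the order used for every hTyr group) and 7.98, 8.36, 8.35, 8.52 and 8.58 in input. In EYFP animals it ran from 9.67 over a median of 10.35 to 10.67 in IP and from 8.38 over 8.54 to 8.83 in input. Every IP library was above every input library. The log2 change was 1.74 (SE 0.14, 3.34-fold, limma adjusted p = 3.53e-07) in EYFP and 2.08 (SE 0.12, 4.23-fold, limma adjusted p = 4.88e-09) in hTyr animals. Hsp90ab1 encodes HSP90 beta, the constitutive isoform (chromosome 17, 45567775 to 45573271, minus strand), and it changed less. Its IP levels were 10.48, 10.64, 10.35, 10.63 and 10.62 log2 CPM in hTyr animals and 10.36 to 10.76 (median 10.61) in EYFP animals, and its input levels 9.90 to 10.02 (median 9.91) and 9.94 to 10.18 (median 10.03). The log2 change was 0.54 (SE 0.08, limma adjusted p = 2.6e-05) in EYFP and 0.59 (SE 0.09, limma adjusted p = 2.2e-05) in hTyr animals, and the groups did not overlap.

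HSC70. Hspa8 encodes HSC70, the HSP70 that cells make without stress, which also uncoats clathrin vesicles (chromosome 9, 40800984 to 40810087, plus strand). Its level was 11.21, 11.28, 11.17, 11.48 and 11.24 log2 CPM in hTyr IP and 10.05, 10.05, 10.01, 10.06 and 10.15 in hTyr input. In EYFP animals it ran from 10.73 over 11.24 to 11.42 in IP and from 10.04 over 10.19 to 10.30 in input. IP and input were apart under both infusions, by a log2 change of 1.01 (SE 0.10, 2.01-fold, limma adjusted p = 1.54e-06) in EYFP and 1.21 (SE 0.09, 2.31-fold, limma adjusted p = 2.08e-08) in hTyr animals.

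HSP110 genes. Hspa4 and Hspa4l encode APG-2 and APG-1, and Hsph1 encodes HSP105, all nucleotide exchange factors of HSP70. Hspa4l (chromosome 3, 40744495 to 40796103, plus strand) had the second largest difference in EYFP and hTyr animals. That rank did not hold when trends with gene length and GC were removed, where Hspa4 was above it. It measured 8.19, 8.08, 8.04, 8.22 and 8.29 log2 CPM in hTyr IP and 5.88, 6.36, 6.31, 6.45 and 6.53 in hTyr input, and 7.32 to 8.34 (median 8.03) in EYFP IP and 6.23 to 6.90 (median 6.57) in EYFP input. The log2 change was 1.42 (SE 0.14, 2.68-fold, limma adjusted p = 1.42e-06) in EYFP and 1.86 (SE 0.11, 3.63-fold, limma adjusted p = 4.88e-09) in hTyr animals. Hspa4 (chromosome 11, 53259814 to 53300457, minus strand) ran from 7.56 to 8.52 log2 CPM in EYFP IP and from 7.87 to 8.42 in hTyr IP, above inputs of 6.29 to 7.10. Its log2 change was 1.25 (SE 0.13, limma adjusted p = 1.54e-06) in EYFP and 1.54 (SE 0.12, limma adjusted p = 3.14e-08) in hTyr animals. Hsph1 (chromosome 5, 149614287 to 149636376, minus strand), the family member that heat induces, had the smallest difference of the 3, with 0.51 (SE 0.08, limma adjusted p = 0.000107) and 0.69 (SE 0.10, limma adjusted p = 2.21e-05). Its IP levels of 8.31 to 8.74 log2 CPM lay just above its input levels of 7.59 to 8.27.

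J-domain protein. Dnaja1 encodes a J-domain co-chaperone that stimulates the ATPase of HSP70 (chromosome 4, 40722150 to 40737149, plus strand). Its level was 8.29, 8.18, 8.40, 8.64 and 8.42 log2 CPM in hTyr IP and 7.03, 7.16, 7.13, 7.24 and 7.57 in hTyr input, and 8.01 to 8.72 (median 8.39) in EYFP IP and 7.24 to 7.58 (median 7.37) in EYFP input. The groups were apart, with log2 changes of 0.96 (SE 0.10, limma adjusted p = 1.55e-06) in EYFP and 1.16 (SE 0.11, limma adjusted p = 1.92e-07) in hTyr animals.

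Inducible HSP70. Hspa1a (chromosome 17, 34969190 to 34972156, minus strand) and Hspa1b (chromosome 17, 34956436 to 34959238, minus strand) are neighbouring, near-identical genes for the HSP70 protein that heat and other stress induce. Of the 100-base windows of Hspa1b transcripts, 49.9% also occur in Hspa1a, so reads may have been split between them in counting, and their separate values are uncertain. Hspa1a measured 4.25, 4.24, 4.73, 5.20 and 4.99 log2 CPM in hTyr IP and 3.39, 3.38, 3.69, 4.01 and 4.02 in hTyr input, and the groups were apart. In EYFP animals it ran from 4.57 over 4.72 to 6.11 in IP and from 3.20 over 4.07 to 5.27 in input, and the groups overlapped. The log2 change was 1.01 (SE 0.32, limma adjusted p = 0.0134) in EYFP and 0.98 (SE 0.19, limma adjusted p = 0.000334) in hTyr animals. Hspa1b measured 3.16, 3.43, 3.65, 4.96 and 3.98 log2 CPM in hTyr IP and 2.76, 2.61, 3.14, 4.12 and 3.18 in hTyr input. In EYFP animals it ran from 3.62 over 4.24 to 5.89 in IP and from 2.66 over 3.80 to 5.17 in input. The groups overlapped under both infusions, and the log2 change of 0.81 in EYFP (SE 0.39, 95% interval -0.01 to 1.63, limma adjusted p = 0.0845) and 0.67 in hTyr animals (SE 0.30, limma adjusted p = 0.0676) did not pass the threshold. With the replicate block, which compares IP and input within each animal, the change of Hspa1b passed in both (limma adjusted p = 6.04e-06, SE 0.11, in EYFP and 0.000231, SE 0.13, in hTyr animals). Without IP_507 and Pre_507 the EYFP change of Hspa1b was 0.83 (limma adjusted p = 0.0179), and without IP_509 and Pre_509 the hTyr change was 0.63 (limma adjusted p = 0.0138). Those 2 mice had the highest Hspa1b values of their groups in both IP and input.

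Small heat shock protein. Hspb1 encodes HSP25, an ATP-independent chaperone that binds unfolding proteins and actin (chromosome 5, 135887919 to 135889563, plus strand), and it is the member whose IP and input levels overlapped almost wholly. It measured 4.19, 3.89, 4.25, 3.83 and 3.86 log2 CPM in hTyr IP and 4.02, 3.84, 3.99, 3.78 and 4.17 in hTyr input, and 3.92 to 4.85 (median 4.13) in EYFP IP and 3.84 to 4.60 (median 4.14) in EYFP input. The log2 change was 0.10 (SE 0.15, 95% interval -0.21 to 0.40, limma adjusted p = 0.598) in EYFP and 0.04 (SE 0.12, 95% interval -0.22 to 0.31, limma adjusted p = 0.782) in hTyr animals. With length and GC trends removed and the replicate block, the changes were 0.20 and 0.26 (limma adjusted p = 0.0589 and 0.058). Some members resemble processed copies elsewhere in the genome: 42.7% of the 100-base windows of Hspb1 also occur in Hsp25-ps1, 39.6% of those of Hsp90aa1 in Gm12346, 28.9% of those of Hspa8 in Gm15459 and 13.0% of those of Dnaja1 in Gm15542. Reads from such windows may have been split or dropped in counting.

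**Figure D2:**
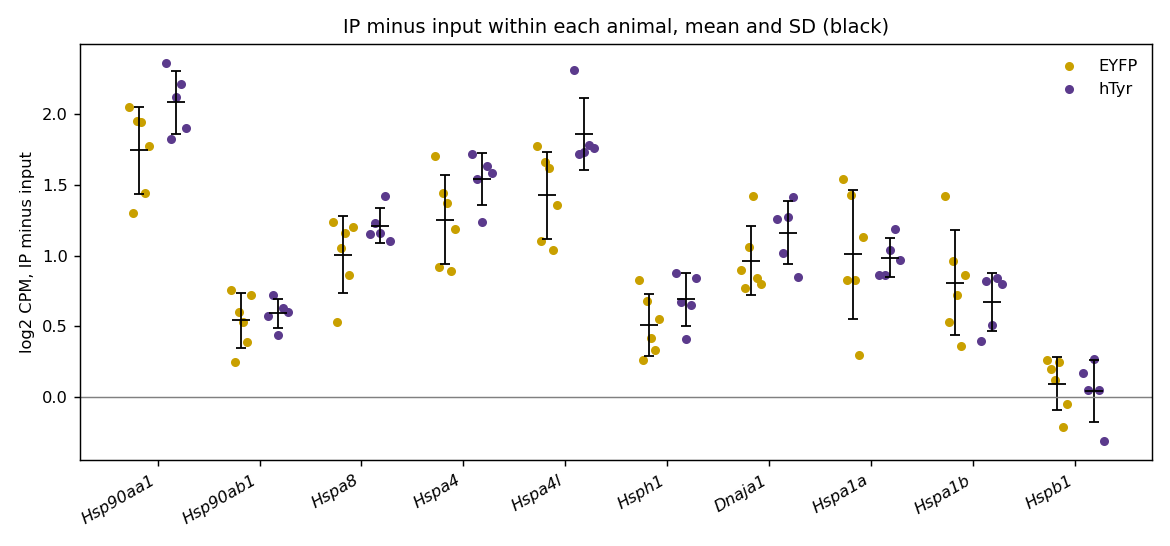
IP level minus input level in each animal (log2 CPM difference) for the 10 genes, with EYFP animals in yellow and hTyr animals in purple. Each point is 1 animal, black marks give mean and SD, and the grey line is 0. The points of 9 genes lie above 0 in all 11 animals, with Hsp90aa1 and Hspa4l highest, and those of Hspb1 lie on both sides.

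Upstream sequences are shown for the members in which a heat shock element was found, in full for Hspa1a and Hspa1b, the most scattered genes, and for Hspb1, which was not called between IP and input. RefSeq promoters (GRCm38.p6) were matched for 7 of the 10 members: Hspa4, Hspa4l, Hsph1, Dnaja1, Hspa1a, Hspa1b and Hspb1. The 250 bases before each start were searched on both strands for a heat shock element of 2 inverted units, GAANNTTC or TTCNNGAA, each of which is its own reverse complement. Such a match was found in 5 of the 7 members (Hsph1, Dnaja1, Hspa1a, Hspa1b and Hspb1) and in 14.5% of the 27025 genes of the promoter table. Dnaja1 held it at 1 of its 3 listed starts. A run of 3 units was found in none of the 7 and in 0.51% of all genes. A match is a description of letters and not evidence of binding. The windows of Hspa1a (chr17:34972157-34972406, minus strand), Hspa1b (chr17:34959239-34959488, minus strand) and Hspb1 (chr5:135887669-135887918, plus strand) follow 5′ to 3′, each ending at the base before the start, with the matches in capitals.
Hspa1a: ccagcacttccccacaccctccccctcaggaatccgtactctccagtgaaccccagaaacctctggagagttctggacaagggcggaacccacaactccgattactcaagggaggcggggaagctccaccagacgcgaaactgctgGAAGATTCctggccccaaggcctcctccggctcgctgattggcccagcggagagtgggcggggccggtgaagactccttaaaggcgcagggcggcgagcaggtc
Hspa1b: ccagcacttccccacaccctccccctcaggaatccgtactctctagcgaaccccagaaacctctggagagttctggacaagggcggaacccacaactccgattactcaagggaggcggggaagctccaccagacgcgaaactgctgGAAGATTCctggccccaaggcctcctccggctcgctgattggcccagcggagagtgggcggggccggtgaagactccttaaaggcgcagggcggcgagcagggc
Hspb1: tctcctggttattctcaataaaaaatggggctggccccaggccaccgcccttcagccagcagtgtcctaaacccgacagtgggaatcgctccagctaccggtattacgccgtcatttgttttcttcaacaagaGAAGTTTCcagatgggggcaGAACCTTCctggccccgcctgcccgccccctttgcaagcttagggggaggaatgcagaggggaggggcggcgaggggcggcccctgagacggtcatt

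The windows of Hspa1a and Hspa1b were equal at 247 of 250 positions, and their single match began 104 bases before the start in both. Hspb1 held 2 matches, which began 117 and 97 bases before its start. For the inducible HSP110 gene and the J-domain gene only the 30 bases around the match are given, from the windows chr5:149636337-149636586 (minus strand) and chr4:40722218-40722467 (plus strand).
Hsph1: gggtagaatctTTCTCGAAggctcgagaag
Dnaja1: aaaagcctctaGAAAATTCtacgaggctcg

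The match of Hsph1 began 33 bases before its RefSeq start and that of Dnaja1 124 bases before the RefSeq start concerned. In GENCODE M21, however, other transcripts of both genes begin farther upstream: all 8 bases of each of these matches lie inside an annotated exon of the gene, as do 40 of the 250 bases of the Hsph1 window and 218 of the 250 of the Dnaja1 window. No base of the Hspa1a, Hspa1b and Hspb1 windows lies in an exon of its gene. The members with matches include both the most scattered genes, Hspa1a and Hspa1b, and Hsph1 and Dnaja1, whose spread was near that of the median gene.

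In IP RNA, no difference between hTyr and EYFP animals passed the threshold for any of the 10 genes, and with all 11 IP libraries none reached an unadjusted p under 0.05 (limma). Voom on the recovered reads also called 0 of 10. Among all genes 0.0556% were called, which is 7 genes, all higher in hTyr. The hTyr and EYFP groups overlapped for all 10 members, while 0.389% of all genes had non-overlapping groups with hTyr higher and 0.262% with hTyr lower. The median log2 change of the members was 0.02, beside -0.01 over all genes.

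The HSP90, HSC70, HSP110 and J-domain genes had narrower intervals than the inducible HSP70 pair. The 95% interval of the log2 change was -0.20 to 0.44 for Hsp90aa1, -0.25 to 0.15 for Hsp90ab1 and -0.16 to 0.34 for Hspa8. It was -0.26 to 0.35 for Hspa4, -0.10 to 0.48 for Hspa4l, -0.18 to 0.21 for Hsph1 and -0.21 to 0.27 for Dnaja1. The EYFP library IP_505 was the lowest of its group for 7 of the 10 members. Without it, the changes of Hsp90aa1 and Hspa4l in hTyr IP were -0.013 and 0.055, against 0.12 and 0.19 with it. IP_505 held 894 CPM of noradrenergic markers, and the other EYFP IP libraries held from 749 (IP_511) to 1487 (IP_504). Within EYFP IP, the lowest r across genes was 0.963, of IP_505 with IP_504, and the highest 0.989, of IP_512 with IP_506. The part of either in the values of IP_505 was not tested.

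Hspa1a, Hspa1b and Hspb1 had lower means in hTyr IP, by log2 changes of -0.36 (SE 0.25), -0.66 (SE 0.34) and -0.26 (SE 0.15), with limma adjusted p of 0.864, 0.821 and 0.835. The interval of Hspa1b, -1.38 to 0.07, spans folds from 0.383 to 1.05. Single mice moved these values. Without IP_507 they were -0.14, -0.38 and -0.14, and without IP_509 Hspa1b was at -0.94 (SE 0.32, limma unadjusted p = 0.00906, adjusted p = 0.664). With 1 mouse left out, 2 other fits gave an unadjusted p under 0.05: Hspa1b at -0.84 without IP_506 (limma unadjusted p = 0.0238, adjusted p = 0.877) and Hspb1 at -0.33 without IP_511 (limma unadjusted p = 0.0481, adjusted p = 1). Because reads may be shared, the CPM of Hspa1a and Hspa1b were also added, an alternative chosen after the data were seen. The sum was 5.32 ± 0.53 log2 CPM in hTyr IP (n = 5) and 5.79 ± 0.67 in EYFP IP (n = 6), and the difference of -0.47 had a two-sided exact permutation p of 0.255.

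**Figure D3:**
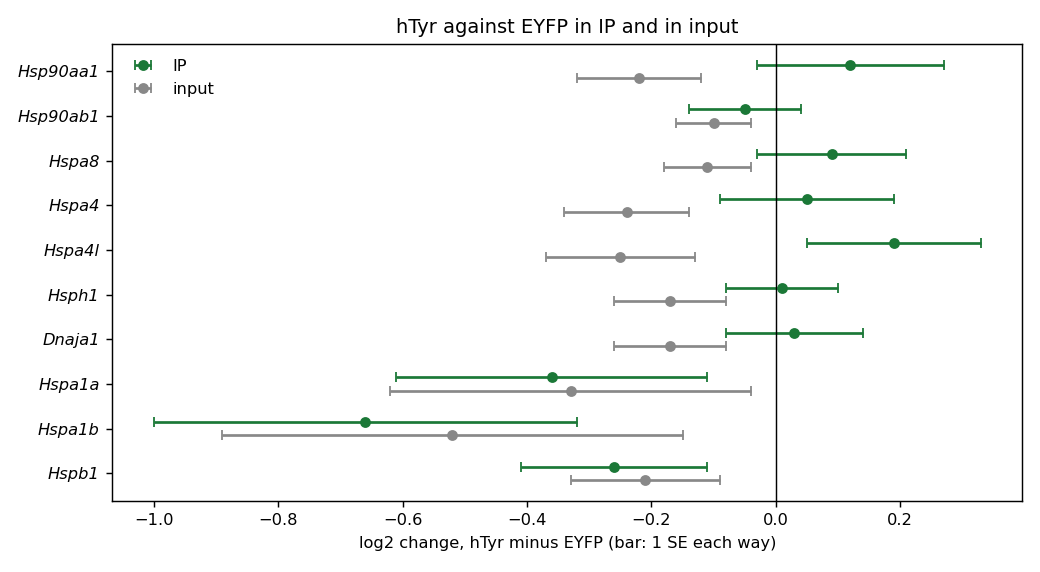
Log2 change of hTyr against EYFP for each of the 10 genes, in IP (green) and in input (grey), with bars of 1 SE from limma each way. The IP values lie on both sides of 0, from -0.66 for Hspa1b to 0.19 for Hspa4l, and the input values lie below 0 for all 10 genes and carry no test.

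In input RNA, the hTyr mean was below the EYFP mean for all 10 members, which is the pattern known when the list was made, while 53.6% of all genes had a change below 0. The lowest changes were -0.52 (SE 0.37) for Hspa1b, -0.33 (SE 0.29) for Hspa1a, -0.25 (SE 0.12) for Hspa4l, -0.24 (SE 0.10) for Hspa4 and -0.22 (SE 0.10) for Hsp90aa1. The others were Hspb1 at -0.21 (SE 0.12), Hsph1 and Dnaja1 at -0.17 (SE 0.09 each), Hspa8 at -0.11 (SE 0.07) and Hsp90ab1 at -0.10 (SE 0.06). The median was -0.21, beside -0.01 over all genes. In each of the 10 genes the hTyr and EYFP libraries overlapped, and 0.0794% of all genes had non-overlapping groups with hTyr lower. Pre_501 was the lowest of the hTyr inputs for 5 members, and Pre_510 the highest for 8. Without Pre_501 the change of Hspa4l was -0.14, that of Hspa4 -0.16, that of Hsp90aa1 -0.13 and that of Hsph1 -0.098. Without Pre_507 the change of Hspa1b was -0.23, that of Hspa1a -0.08, that of Hspb1 -0.12 and that of Hsph1 -0.11.

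The IP-minus-input difference of the same animals was larger in hTyr than in EYFP animals by 0.44 for Hspa4l, 0.34 for Hsp90aa1, 0.29 for Hspa4, 0.20 for Hspa8, 0.20 for Dnaja1, 0.18 for Hsph1 and 0.05 for Hsp90ab1. It was smaller for Hspa1a (-0.03), Hspb1 (-0.05) and Hspa1b (-0.14). These values contain the input contrast and are a description without a test. Slc6a2, whose sequences drive the ribosome tag, measured 2.12 ± 0.17 log2 CPM in hTyr input (n = 5) and 3.03 ± 0.19 in EYFP input (n = 6), and its part in these differences was not tested. The median over the members was 0.19, and 6381 of 12596 genes were above 0. The hTyr and EYFP animals overlapped in this difference for all 10 genes.

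The members fell into steady and scattered genes. The SD within groups was 0.76 on the log2 scale for Hspa1b and 0.58 for Hspa1a, and 99.4% and 99.0% of all genes had no larger SD. At the other end, Hsp90ab1 had an SD of 0.11 (6.9% of genes no larger) and Hspa8 one of 0.15, beside a median of 0.18 over all genes. Hsp90aa1, Hspa4l, Hspb1 and Hspa4 lay between, from 0.24 to 0.26.

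Animals with high values of the inducible pair in input also had high values in IP. Over 11 animals, the deviation of Hspa1b from its group mean in IP followed that in input with r = 0.92 (permutation p = 0.00013, adjusted over the 10 genes 0.0013) and rho = 0.88 (permutation p = 0.00069, adjusted 0.0069). Without the 2 animals farthest from the median (those of IP_506 and IP_507) r was 0.82. For Hspa1a, r was 0.82 (permutation p = 0.00141, adjusted 0.00705) and rho 0.66 (permutation p = 0.0302, adjusted 0.151), with r = 0.69 without those of IP_504 and IP_507. Hspb1 had r = 0.70 (permutation p = 0.0182, adjusted 0.0605) and rho = 0.59 (permutation p = 0.0621, adjusted 0.207), and r fell to 0.35 without the farthest 2, so its relation rests on them. For the other 7 members r ran from -0.15 to 0.47 and did not pass (adjusted permutation p from 0.327 to 0.788). The median r was 0.42 over the members and 0.27 over all genes.

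**Figure D4:**
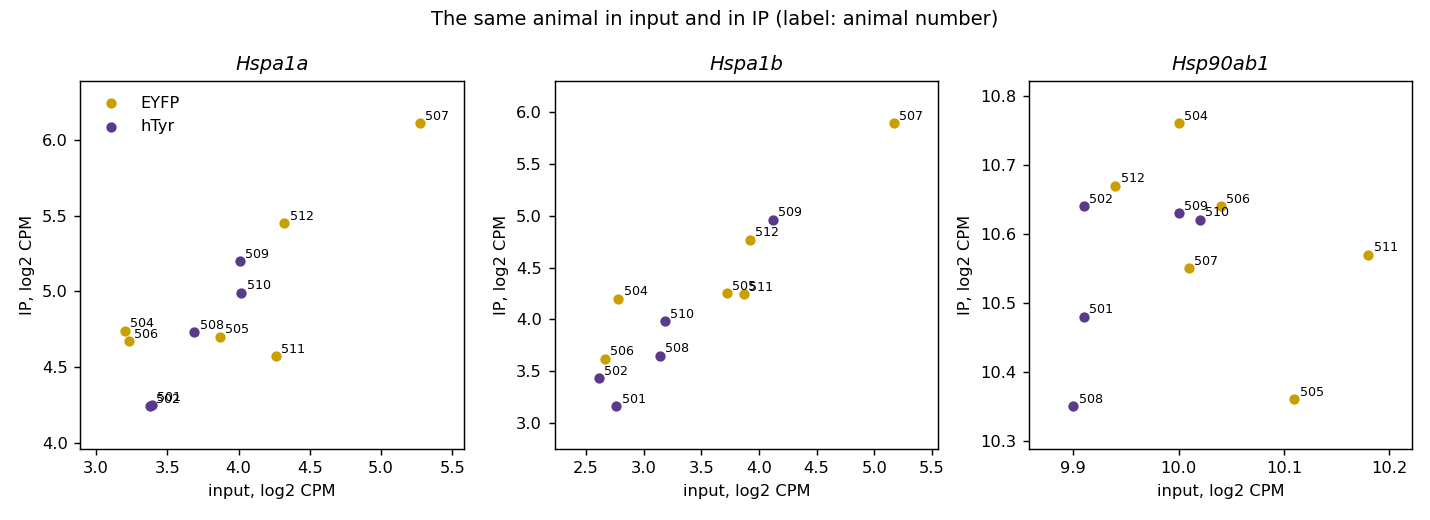
Level in IP against level in input (log2 CPM) for Hspa1a, Hspa1b and, for contrast, the steady gene Hsp90ab1, with 1 numbered point per animal, EYFP in yellow and hTyr in purple. The mice of IP_507 (EYFP) and IP_509 (hTyr) are at the upper right for Hspa1b, with 5.89 and 4.96 in IP and 5.17 and 4.12 in input, and Hsp90ab1 shows no such line (r = -0.15).

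The mice of IP_507 and IP_509 also stood high in immediate early genes, which were listed as signs of activity or handling. The mean of the 10 immediate early genes in the table was 4.68 log2 CPM in Pre_507, the highest of the EYFP inputs, and 4.73 in Pre_509, the highest of the hTyr inputs. In IP_507 and IP_509 it was 4.51 and 4.66. IP_505 had 4.55 and Pre_505 had 4.64, with Hspa1b at 4.25 and 3.72. By summed CPM of these genes, Pre_505 at 339 was above Pre_507 at 329, and IP_505 at 299 was above IP_507 at 293. The part of the immediate early genes in the Hspa1a and Hspa1b values was not tested.

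Across all 22 libraries, after removal of group means, the members formed blocks that are given as a description, since all values share library and depth. Hspa1a and Hspa1b followed each other with r = 0.93, and shared reads would raise this value. Hsp90aa1 and Hspa4l had r = 0.91, Hspa4 and Hspa4l 0.87, and Hspa8 and Hsp90ab1 0.83. Hspa1a had r = 0.07 with Hspa8 and 0.09 with Hsp90ab1. Hsph1 had r = 0.69 with Hspa1b and 0.64 with Hspa1a. Hspb1 had r = 0.58 with Hspa1a and -0.40 with Hsp90ab1.

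**Figure D5:**
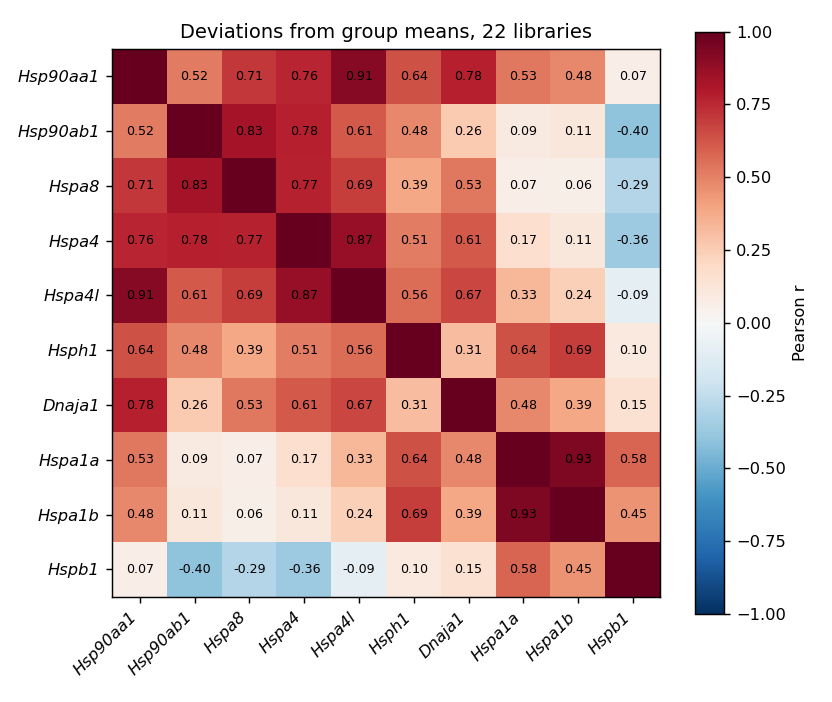
Pearson r between each pair of the 10 genes over 22 libraries after removal of group means, on a colour scale from -1 to 1. Hspa1a with Hspa1b (0.93) and Hsp90aa1 with Hspa4l (0.91) are the strongest pairs, and Hspb1 with Hsp90ab1 (-0.40) is below 0.

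The genes outside the list that most resembled the mean deviation of the members over the 22 libraries were Etnppl, a phospholyase of phosphoethanolamine made by astrocytes (r = 0.914), Pkn2, a protein kinase of the PKC-related group (0.853), Pik3ca, the catalytic alpha subunit of PI3-kinase (0.842), Nfkbia, the inhibitor of NF-kappaB (0.826), and Slc5a3, a myo-inositol transporter (0.822). Etnppl ran from 5.26 to 6.43 log2 CPM in EYFP IP and from 4.57 to 5.44 in EYFP input. These 5 were picked as the highest of all genes, so their r values are a description. The members' mean was not scaled by SD, so Hspa1a and Hspa1b (SD 0.58 and 0.76) carry more of its spread than the other members.

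Of 50 listed partner genes, 47 were in the table, and they moved less evenly between IP and input than the heat shock genes: 24 were higher, 8 lower and 15 not called in EYFP animals, and 23 were higher, 9 lower and 15 not called in hTyr animals. Their median log2 change was 0.17 and 0.18. Of the 15 HSP90 and HSP70 co-chaperones, 10 were higher and 1 lower in EYFP animals, and 10 higher and 2 lower in hTyr animals. Cacybp, which binds HSP90, rose by 1.02 in hTyr animals (limma adjusted p = 3.97e-07), while Nudc, a chaperone of the dynein complex, was lower at -0.47 (limma adjusted p = 0.000112). Of the 10 J-domain partners, 4 were higher and 2 lower in EYFP, and 4 higher and 1 lower in hTyr animals. Dnaja2, a relative of Dnaja1, rose by 0.86 (limma adjusted p = 3.44e-06) and 1.04 (limma adjusted p = 3.6e-07), and Dnajc5, the synaptic vesicle protein CSP alpha, was lower in EYFP animals at -0.37 (limma adjusted p = 0.00036).

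Of the 7 exchange factors of HSP70 outside the HSP110 family, 2 were higher and 1 lower in EYFP, and 1 higher and 2 lower in hTyr animals, where Bag1 was at -0.43 (limma adjusted p = 0.0022). Of the 5 mitochondrial chaperones, 4 were higher under both infusions. Hspa9, the HSP70 of the mitochondrial matrix, had the largest change of the partner genes, with 1.41 (limma adjusted p = 9.13e-07) and 1.56 (limma adjusted p = 3.28e-08), and Hspd1, the mitochondrial HSP60, rose by 0.98 (limma adjusted p = 1.16e-06) and 1.14 (limma adjusted p = 1.3e-07). Of the other HSP70 and small heat shock protein genes, 6 of 9 were in the table, with 3 higher and 2 lower under both infusions. Hspa2, an HSP70 abundant in testis, rose by 0.93 in EYFP animals (limma adjusted p = 4.08e-05). The small heat shock genes Hspb6 and Cryab, the latter abundant in oligodendrocytes, were lower in IP, at -0.59 and -0.34 in EYFP (limma adjusted p = 0.000134 and 0.00623) and -0.68 and -0.53 in hTyr animals (limma adjusted p = 0.000615 and 0.000169). The last list held the heat shock factor genes Hsf1, Hsf2 and Hsf4 and Hsbp1, which encodes a binding protein of such factors. Of these 4, 1 was higher and 2 lower under both infusions. Hsf2 rose by 0.84 (limma adjusted p = 5.86e-06) and 1.06 (limma adjusted p = 9.98e-07). Hsf1, the stress-activated factor, was lower in IP than in input in hTyr animals, at -0.53 (limma adjusted p = 0.00294). Where a partner gene is given for 1 infusion only, it fell outside the naming rule described below in the other. Such a gene is not thereby shown to differ between the infusions.

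Between hTyr and EYFP in IP, 0 of the 47 partner genes were called by limma, with 2 at an unadjusted p under 0.05, beside 780 of all 12596 genes. In input, 29 of the 47 (61.7%) had a change below 0, beside 53.6% of all genes. Their median was -0.02, beside -0.21 for the 10 heat shock genes. All 5 mitochondrial chaperones (median -0.06) and 9 of the 10 J-domain partners (median -0.07) were below 0 there. No partner gene had non-overlapping groups.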

How the data were processed

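The authors deposited 1 table of log2 values for 12596 genes in 22 libraries. The submitters' processing notes name STAR, featureCounts and the build mm10 (versions not given in the sources used here), and the labels describe the deposited values as filtered, normalized and log transformed. The values were found to be log2 CPM with a pseudocount that averaged 2 reads, since 100% of them came back as whole reads (within 0.05 reads). Recovered depth was 12654489 to 25100142 reads per library. The labels name no molecular identifiers, so depth speaks of counting error only.

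The deposited log2 values of all genes were tested in R 4.3.3 with moderated statistics from limma 3.58.1, allowing a trend of variance with mean level, with Benjamini-Hochberg adjustment and a threshold of 0.05, in 2 groups at a time. The tests were checked on simulated data. The members and partner lists were chosen with earlier results of these data known. All 10 members are named. From the partner lists, each tested comparison names up to 5 rises and 5 falls past the threshold with non-overlapping groups, and the 5 genes most like the members' mean are named. Correlations of IP with input used 100000 permutations in Python 3.11.15. Levels per kb used the exon union of GENCODE M21 genes (GRCm38, the same build as mm10), and promoters came from RefSeq.

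Animal numbers in the sample titles pair IP with input. Deviations from group means of the same animal correlated across genes with a mean r of 0.448 (0.279 to 0.626 over 11 animals), against -0.096 for different animals of the same infusion. Centring on group means pushes the latter value below 0, so it is not an independent comparison. Alternatives were the replicate block, median centring, quantile normalization, a pseudocount of 5 CPM, the upper 75% of genes by level, no variance trend, voom on recovered reads, 1 fit over all libraries, removal of length and GC trends (12375 genes, 98.2%), and leaving out each animal.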

Additional observations from a re-analysis of the deposited data

Results flagged for a closer look

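Of 120 sets of library values examined for the named genes (each gene in each group), 4 had a library far from the others of its group, where chance gives about 6. None of the 4 concerned the 10 heat shock genes. Dnajc5 was lowest in EYFP IP in the library IP_507, at 8.14 log2 CPM, with the next at 8.37. Hsf1 was highest in EYFP IP in IP_505, at 5.58, with the next at 5.18. Hspa9 was highest in hTyr input in Pre_510, at 7.32, with the next at 6.87. Slc5a3 was lowest in hTyr input in Pre_501, at 3.50, with the next at 4.37.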

How the results depend on the processing

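The counts of heat shock genes past the threshold stayed within 1.5 times under every alternative run: 8 or 9 were higher in IP than in input under both infusions, 0 lower, and 0 differed between hTyr and EYFP in IP. Hspa1b made the difference, and the replicate block, which pairs the libraries of an animal, moved no other member's call: with it the changes were 0.81 and 0.67 (limma adjusted p = 6.04e-06 and 0.000231), and with length and GC trends removed as well 0.95 and 0.89. Without IP_507 and Pre_507 it was 0.83, and without IP_509 and Pre_509 it was 0.63. With length and GC trends removed and the replicate block, Hspa4l was 1.04 in EYFP and 1.32 in hTyr animals. Hspa4 was then above it, at 1.22 and 1.46, and Dnaja1 was 0.65 and 0.71. Under the same setting Hspb1 was 0.20 in EYFP (limma adjusted p = 0.0589) and 0.26 in hTyr animals (limma adjusted p = 0.058), just short of the threshold. Values near 0 that had not passed changed sign. For Hspb1 between IP and input in hTyr animals these were -0.025 with median centring, -0.011 with quantile normalization, and -0.011 to 0.13 with 1 animal left out. Between hTyr and EYFP in IP, Dnaja1 was -0.027 with length and GC trends removed. With 1 animal left out there, Dnaja1 ran from -0.041 to 0.10, Hsp90aa1 from -0.013 to 0.19, Hspa4 from -0.06 to 0.13, Hsph1 from -0.034 to 0.055 and Hsp90ab1 from -0.095 to 0.00029. Leaving out IP_505 gave the lowest of these values for Dnaja1, Hsp90aa1, Hspa4 and Hsp90ab1. The cause was not tested. Over all genes, hTyr against EYFP in IP called 7 genes, 14 (13 higher and 1 lower) in 1 fit over all libraries, and 3 to 11 with 1 animal left out. All 10 members had a change below 0 in input under each alternative run, and 6 to 8 had a larger change in IP than in input. Leaving out IP_507 and Pre_507 moved Hspa1a and Hspa1b by over 1.5 times in IP (-0.14 and -0.38) and in input (-0.08 and -0.23).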
